A study of Cricetulus griseus with 8 samples.

Results

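The kinesins are a superfamily of motor proteins, and the genes described here are all rows of the deposited table whose symbol is Kif followed by a number (with or without a letter from a to c) or by the letter c and a digit. The rule found 39 of 26776 named genes. Each was assigned by its textbook role to the mitotic kinesins (12 genes), the transport kinesins (14 genes) or the third class (other in the plots), which holds regulators of cilia, of Hedgehog signalling and of microtubules and genes of unsettled role (13 genes). RNA came from LR73, a fibroblast line of the Chinese hamster that serves as a model phagocyte. It was grown in 4 cultures by itself (called alone) and in 4 co-cultures with dying Jurkat cells (called with apoptotic cells), 1 library each. Those Jurkat cells, a human T cell line, were exposed to UV-C light at 1500 mJ and cultured for 4 h before they met the phagocytes. Both groups are this 1 line in culture, and the column names carry the prefix GFP in both groups, which the labels do not explain. The series calls the libraries biological replicates without saying how the cultures were separated. The p-values thus set each group difference against the spread between these libraries, whose independence is not known.

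Kinesins use ATP to move along microtubules or to take their ends apart. Most walk towards the plus end, and the kinesin-14 members walk towards the minus end. Mitotic kinesins build the spindle, move chromosomes and lay down the midzone at which the cell divides, and many of them are made mainly in the G2 and M phases of the cell cycle. Transport kinesins carry vesicles, endosomes, mitochondria and other cargo in cells of any phase, often through light chains and adaptors that choose the cargo. In a phagocyte, kinesin and dynein motors are known to move phagosomes and lysosomes along microtubules.

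Values are normalized counts, that is, reads per gene divided by 1 size factor per library, and tests ran on log2(normalized count + 1) with limma over the 13494 genes whose mean reached 10. A gene is called at a Benjamini-Hochberg adjusted p under 0.05 over all of these. The libraries held 22.7 to 29.7 M reads in named genes. Among the libraries alone, library 1 had the lowest median deviation in all 3 kinesin classes, and results that it moves are given with and without it. In bulk RNA, more cells in a phase of the cycle and more RNA per cell cannot be told apart.

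With apoptotic cells, 8 of the 11 tested mitotic kinesins rose and none fell. The genes that rose were Kif23, Kif18a, Kif4a, Kif20b, Kifc1, Kif18b, Kif20a and Kif2c, by 17.3 to 42.7%. Of 12 tested transport kinesins 1 rose (Kifc3) and none fell, and of 7 tested kinesins of the third class 1 rose (Kif26b) and none fell. Over all genes tested, 6.36% were called higher and 5.31% lower, 11.7% in all, so the mitotic class (8 of 11, 72.7%) lay far above that share, while the transport class (8.33%) and the third class (14.3%) lay near it. The median log2 fold change was 0.28 for mitotic kinesins, -0.04 for transport kinesins, 0.08 for the third class and 0.001 for all genes tested. The transport median has no settled sign, since it was 0.03 without alone library 3.

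**Figure D1:**
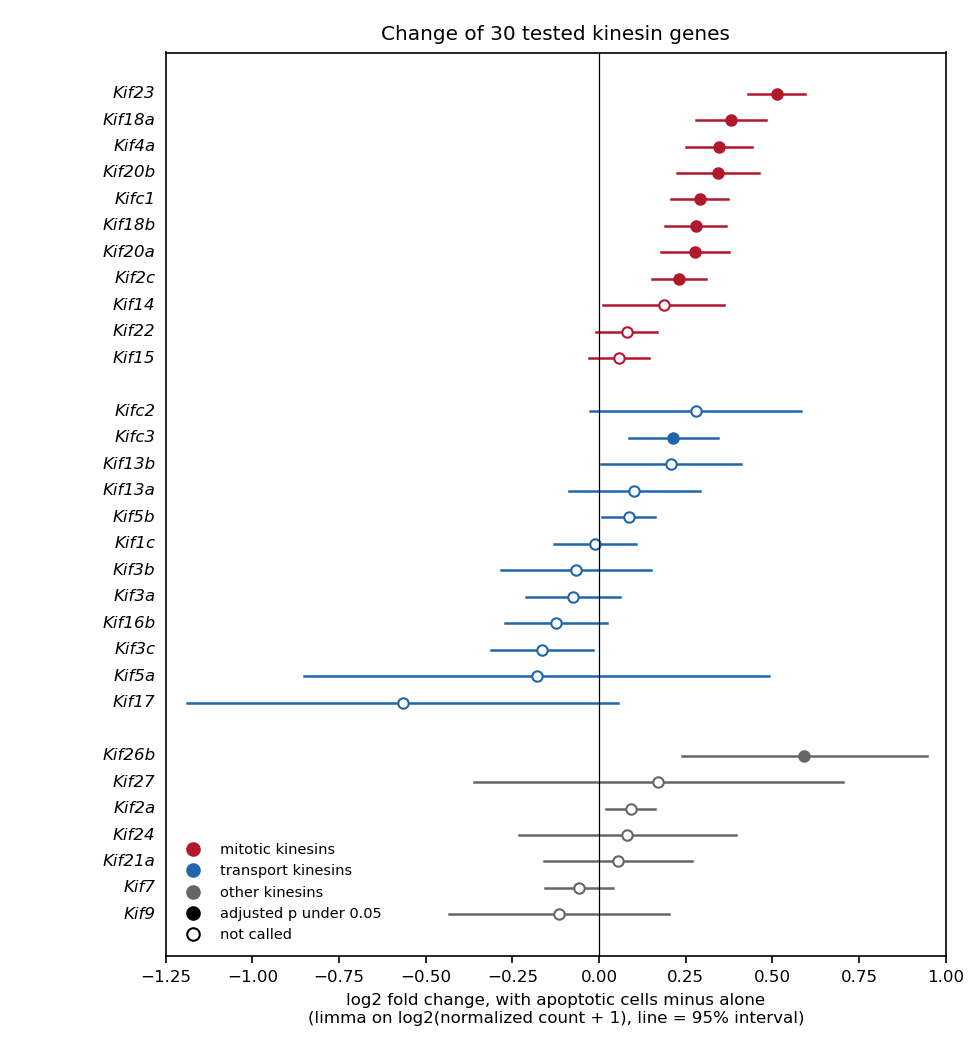
Log2 fold change (with apoptotic cells minus alone, limma) of the 30 tested kinesins with 95% intervals, by class; filled points are called at an adjusted p under 0.05. All 11 mitotic kinesins lie above 0 and 8 are called, while transport kinesins lie on both sides of 0 and only Kifc3 is called.

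The largest change among the mitotic kinesins was that of Kif23, the kinesin-6 motor that joins with Racgap1 to form centralspindlin, the bundler of midzone microtubules. It stood at 2848, 2726, 2667 and 2835 normalized counts in the libraries alone and at 4043, 3761, 4017 and 3981 with apoptotic cells. The lowest co-culture library thus lay far above the highest library alone. The group means of 2769 ± 87.1 and 3951 ± 129 (SD, n = 4 per group) gave a log2 difference of 0.51 (SE 0.04, 95% interval 0.43 to 0.59, limma adjusted p = 2.88e-05). By p, Kif23 ranked 21 among the 13494 genes tested.

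The other kinesin-6 members rose too. Kif20a, which takes the chromosomal passenger complex to the midzone, stood at 1954, 2212, 2139 and 2232 normalized counts alone and at 2595, 2563, 2616 and 2564 with apoptotic cells. The co-culture values were closely grouped, and none overlapped the values alone (log2 fold change 0.28, SE 0.04, limma adjusted p = 0.00326). Kif20b, a motor of late cytokinesis, stood at 3334, 3887, 3829 and 3936 alone and at 4676, 4729, 4995 and 4574 with apoptotic cells. Alone library 1 was the lowest for both genes, and the groups did not overlap (Kif20b log2 fold change 0.34, SE 0.05, limma adjusted p = 0.00306). Without that library the changes were 0.24 for Kif20a and 0.29 for Kif20b, still called.

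Kif4a binds chromosome arms and, with its partner Prc1, sets the length of midzone overlaps. It stood at 1180, 1247, 1235 and 1286 normalized counts alone and at 1666, 1543, 1540 and 1541 with apoptotic cells. Co-culture library 1 was the highest, and the remaining 3 lay within a few counts of each other, all above the libraries alone (log2 fold change 0.35, SE 0.04, limma adjusted p = 0.000775).

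The kinesin-8 pair of plus-end motors rose together. Kif18a, which damps the swings of chromosomes at the metaphase plate, stood at 510, 487, 510 and 487 normalized counts alone and at 637, 667, 666 and 627 with apoptotic cells (log2 fold change 0.38, SE 0.05, limma adjusted p = 0.000663). Kif18b, which trims astral microtubules, stood at 1965, 2199, 2100 and 2139 alone and at 2589, 2527, 2521 and 2550 with apoptotic cells (0.28, SE 0.04, limma adjusted p = 0.00179). Neither gene had any overlap between the groups, and the gap was wide beside the spread within each.

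Kif2c, the centromere kinesin that takes microtubule ends apart and corrects faulty attachments, stood at 3410, 3589, 3512 and 3305 normalized counts alone and at 4059, 4042, 4128 and 3976 with apoptotic cells. It had the smallest rise of the 8 called (log2 fold change 0.23, SE 0.03, limma adjusted p = 0.00241), again with no overlap. Kifc1, a minus-end motor that focuses spindle poles, stood at 2213, 2120, 2077 and 2045 alone and at 2590, 2667, 2549 and 2531 with apoptotic cells (0.29, SE 0.04, limma adjusted p = 0.000904). Unlike Kif20a and Kif20b, Kifc1 had its highest value alone in library 1, and its change without that library was 0.31.

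**Figure D2:**
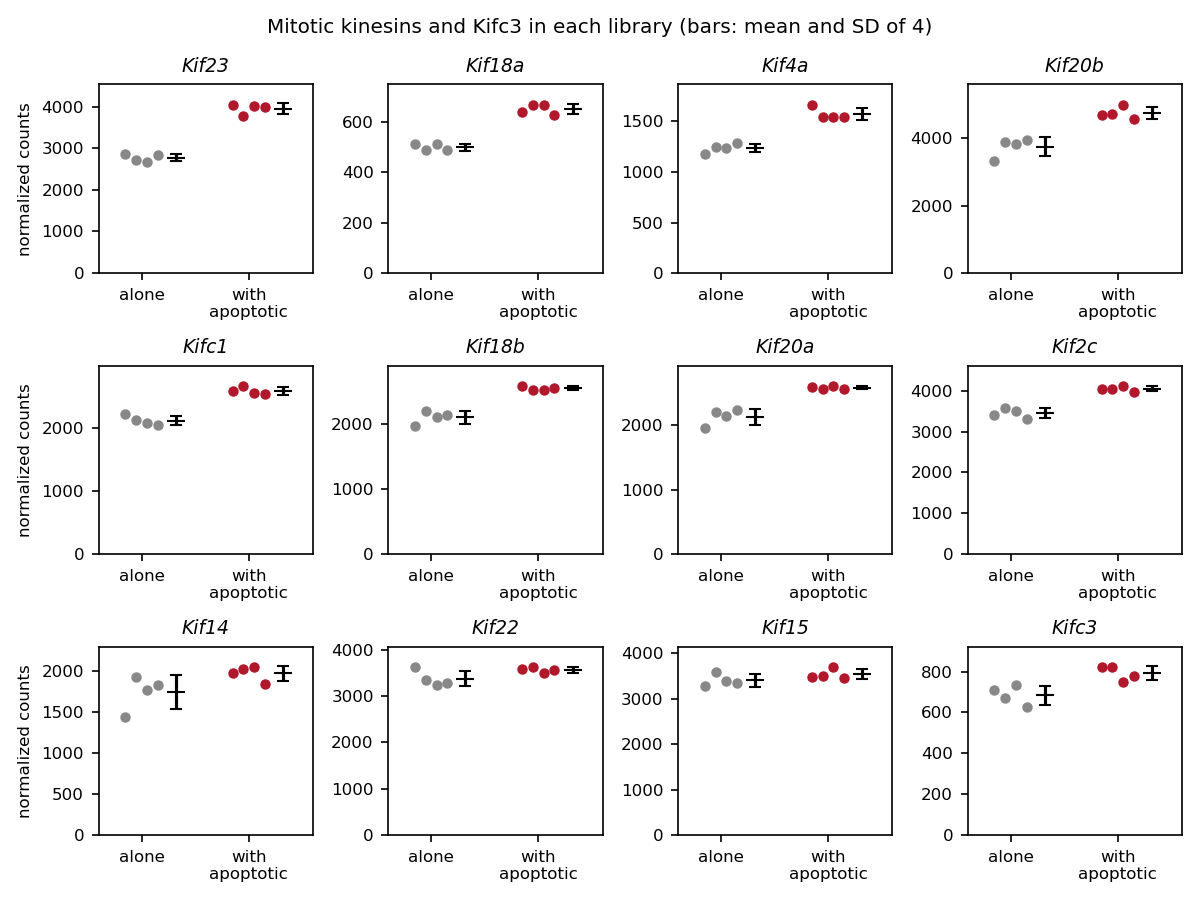
Normalized counts in each library (points), with the group mean and SD (n = 4), for the 11 tested mitotic kinesins and Kifc3; every axis starts at 0. Groups are apart in the 8 called mitotic kinesins and in Kifc3, and overlap in Kif14, Kif22 and Kif15.

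The remaining mitotic kinesins did not pass the threshold in the group-only fit. Kif14, a cytokinesis motor that works with citron kinase, stood at 1440, 1917, 1763 and 1818 normalized counts alone and at 1964, 2015, 2046 and 1833 with apoptotic cells. Alone library 1 lay far below the others, and the groups overlapped (log2 fold change 0.19, 95% interval 0.01 to 0.36, limma adjusted p = 0.163, and 0.10 with adjusted p = 0.0552 without alone library 1). Kif14 was called higher by limma with array weights (0.12, adjusted p = 0.0393). Kif22, a chromosome arm motor, stood at 3623, 3350, 3240 and 3289 alone and at 3585, 3631, 3485 and 3553 with apoptotic cells. Here alone library 1 was the high one of its group, and Kif22 was called without it (0.11, SE 0.03, limma adjusted p = 0.00278). Array weights also gave a call (0.12, limma adjusted p = 0.00321), against 0.08 and adjusted p = 0.232 in the group-only fit on all libraries. Kif15, which helps to keep the spindle bipolar, stood at 3279, 3599, 3403 and 3342 alone and at 3476, 3512, 3708 and 3466 with apoptotic cells, with overlapping groups (0.06, 95% interval -0.03 to 0.14, limma adjusted p = 0.388). The last mitotic member, Kif2b, had 0 reads in every library, which allows up to 3 reads in each by counting error.

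Calls of the 8 mitotic kinesins did not hang on 1 library or 1 test. All 8 were called higher when any 1 of the 8 libraries was left out, with edgeR and with DESeq2 on the recovered reads, and under each of the other settings tried. The authors' deposited table also called 8 mitotic kinesins, 1 transport kinesin and 0 of the third class higher, where 6.71% of its genes with an adjusted p were higher. The groups were apart in 12 of 30 tested kinesins, 12 with higher and 0 with lower values in the co-cultures, against 11.4% and 9.72% of all genes tested. Of these, 8 were mitotic, and Kifc3, Kif5b, Kif26b and Kif2a were the others.

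Among transport kinesins, the heavy chain of conventional kinesin, Kif5b, stood at 7808, 8452, 8242 and 8361 normalized counts alone and at 8669, 8613, 9040 and 8527 with apoptotic cells. The co-cultures were all higher, by a small margin, and the change was not called (log2 fold change 0.08, 95% interval 0.01 to 0.16, limma adjusted p = 0.149). Kif5a, the neuronal form, averaged 13.7 and 11.5 normalized counts, just above the minimum for testing (-0.18, 95% interval -0.85 to 0.49).

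The kinesin-2 subunits Kif3a and Kif3b, which pair with each other and with Kifap3 to move cargo in cilia and in the cytoplasm, averaged 590 ± 41.9 and 559 ± 25.3 (Kif3a) and 312 ± 46.3 and 295 ± 7.96 (Kif3b) normalized counts alone and with apoptotic cells (SD, n = 4 per group). Their log2 fold changes of -0.07 each were within the spread between libraries. Kif3c, the alternative partner of Kif3a, stood at 425, 529, 492 and 495 alone and at 437, 425, 437 and 428 with apoptotic cells. Alone library 1 had a value like the co-cultures, and the remaining 3 were higher. In the group-only fit on all libraries Kif3c was not called (-0.17, 95% interval -0.31 to -0.02, limma adjusted p = 0.141), while limma with array weights called it lower (-0.21, adjusted p = 0.00384). It was the only kinesin with a negative change at an unadjusted p under 0.05, and edgeR and DESeq2 called none lower. Kif17, a motor of dendrites and cilia, averaged 18.1 ± 5.01 and 11.9 ± 3.91, too few to settle its change of -0.57 (95% interval -1.19 to 0.05).

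No transport motor of the kinesin-3 family was called by the group-only limma fit on all libraries. Kif16b, which carries early endosomes, stood at 737, 888, 860 and 869 normalized counts alone and at 824, 772, 715 and 761 with apoptotic cells, with an overlap made by alone library 1 (log2 fold change -0.12, limma adjusted p = 0.267). With array weights, which let limma give a less typical library less weight, Kif16b was called lower (-0.16, limma adjusted p = 0.0167). Kif13b, a motor for membrane cargo, stood at 518, 726, 654 and 648 alone and at 681, 777, 732 and 731 with apoptotic cells (0.21, limma adjusted p = 0.177). Kif13a, which carries endosomal cargo, and Kif1c, which carries vesicles, had differences of 0.10 and -0.01. Among the libraries alone, all 4 of these genes were lowest in library 1.

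Kifc3, a minus-end motor linked to cell junctions, was the 1 transport kinesin called. It stood at 710, 669, 732 and 628 normalized counts alone and at 824, 823, 751 and 776 with apoptotic cells. The groups were apart, but the lowest co-culture value lay close to the highest alone (log2 fold change 0.21, SE 0.06, limma adjusted p = 0.0385). Its adjusted p rose to between 0.0567 and 0.12 when alone library 2, alone library 4 or any single co-culture was left out, so the call was lost there. Kifc2, of the same family, stood at 56.0, 68.4, 55.8 and 50.7 alone and at 72.1, 59.7, 64.8 and 85.1 with apoptotic cells (0.28, 95% interval -0.03 to 0.58, limma adjusted p = 0.226).

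Leaving out alone library 1 added calls in the transport class. Without it 2 transport kinesins were lower, Kif3c (-0.23, SE 0.05, limma adjusted p = 0.00249) and Kif16b (-0.18, SE 0.05, adjusted p = 0.00444), and Kifc3 was higher. The mitotic class then had 9 of 11 higher and 0 lower, and the third class 1 higher (Kif2a) and 0 lower. Calls were more frequent over all genes too, at 13.4% higher and 12.5% lower, so 2 of 12 transport kinesins lower is near the background.

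**Figure D3:**
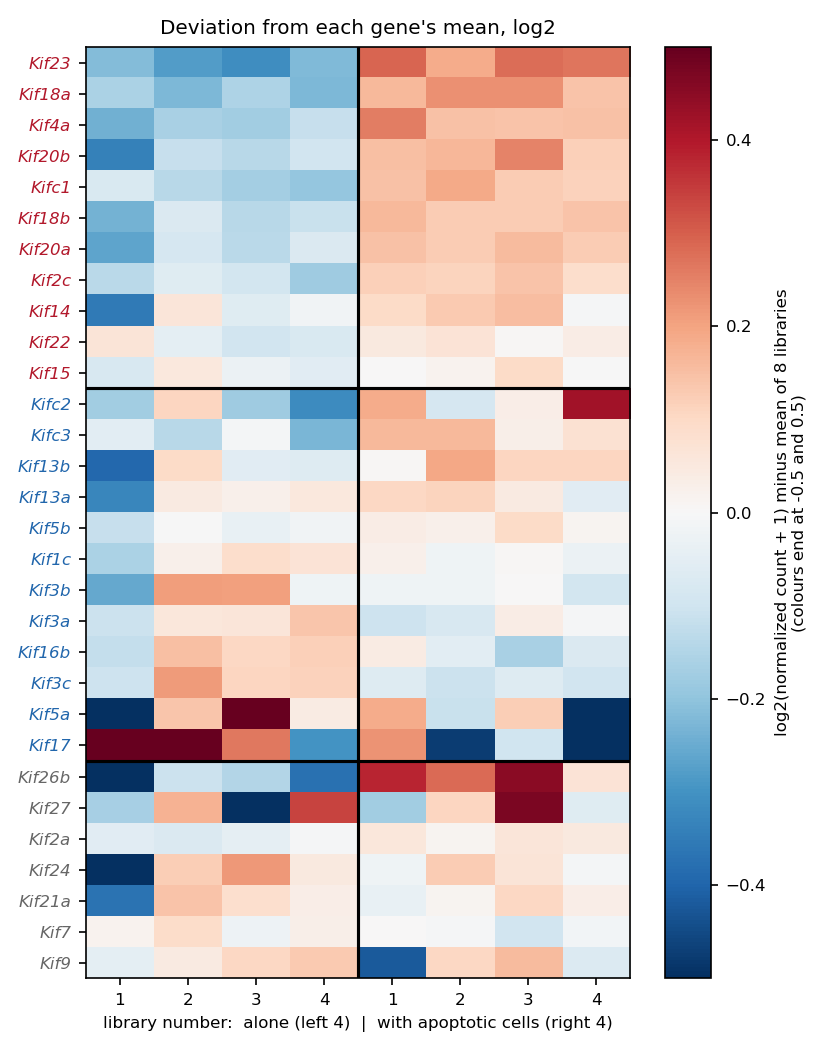
Deviation of each tested kinesin in each library from its own mean over 8 libraries, on the log2(normalized count + 1) scale (colours end at -0.5 and 0.5), with genes ordered by class and change. The upper 8 rows turn from below to above their means between the groups, and alone library 1 is low for genes of all 3 classes, Kif24, Kif13b and Kif21a among them.

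In the third class, Kif26b, an atypical kinesin without motor activity that acts in cell adhesion and Wnt signalling, stood at 18.0, 25.0, 24.4 and 20.7 normalized counts alone and at 35.6, 33.2, 37.4 and 28.4 with apoptotic cells. The groups were apart at these low levels (log2 fold change 0.59, SE 0.16, limma adjusted p = 0.0378). The call rests on few reads, 93 and 129 in all libraries of a group together, and it was lost by DESeq2 (adjusted p = 0.12), with no filter on low values (adjusted p = 0.0796), and in 6 of the 8 refits that left out a library (0.0556 to 0.107), those without alone library 1, 3 or 4 and those without the co-cultures numbered 1, 2 and 3. Kif2a, a relative of Kif2c that takes microtubule ends apart in dividing and in other cells, stood at 2373, 2350, 2393 and 2459 alone and at 2570, 2495, 2580 and 2554 with apoptotic cells. Its groups were apart by a small step (0.09, SE 0.03, limma adjusted p = 0.0955), and it was called without alone library 1 (0.09, adjusted p = 0.031). Array weights gave a call too (0.08, limma adjusted p = 0.0331).

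Kif21a, which limits microtubule growth at the cell edge, averaged 1206 ± 180 and 1242 ± 50.3 normalized counts (SD, n = 4 per group), and Kif24, a centriole kinesin that holds back cilium growth, 417 ± 89.9 and 432 ± 21.2. Both had a positive change with all libraries (0.05 and 0.08) and a negative one without alone library 1 (-0.06 and -0.09), and neither was called. Kif7, a regulator of Hedgehog signalling at the tip of the cilium, averaged 792 ± 26.4 and 761 ± 23.6 (-0.06, limma adjusted p = 0.443). Kif9, a motor of motile cilia, averaged 47.2 ± 2.64 and 44.0 ± 7.62 (-0.12, 95% interval -0.43 to 0.20). Kif27, a relative of Kif7, averaged 22.9 ± 6.93 and 25.4 ± 5.40 (0.17, 95% interval -0.36 to 0.70), and the groups overlapped in all 3 genes.

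The 9 members below the mean of 10 were spread over all classes. Kif1a, a neuronal transport motor, Kif6 and Kif19, both of cilia, and the mitotic Kif2b had no read in any library. Kif12 and Kif25 had 0 reads alone and 1 and 2 with apoptotic cells, Kif5c 1 and 7, Kif26a 7 and 4, and Kif21b 15 and 18. The nearest members to the minimum were Kif5a inside it and Kif21b outside it (3.55 and 4.69 normalized counts). These members were not tested.

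Seen library by library, the median deviation of the 11 mitotic kinesins from their own means was -0.22, -0.09, -0.14 and -0.11 on the log2 scale alone and 0.15, 0.13, 0.14 and 0.12 with apoptotic cells. For the 12 transport kinesins it was -0.14, 0.10, 0.07 and 0.01 alone and 0.04, -0.04, 0.03 and -0.04 with apoptotic cells. The mitotic medians fell into separate ranges by group, with a spread of 0.06 alone and 0.01 in the co-cultures (SD, n = 4 per group), while the transport medians overlapped. The difference between the class medians, mitotic minus transport, ran from -0.21 to -0.08 alone and from 0.11 to 0.17 with apoptotic cells. Members share libraries and were grouped by role, so these medians are a description with no test.

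**Figure D4:**
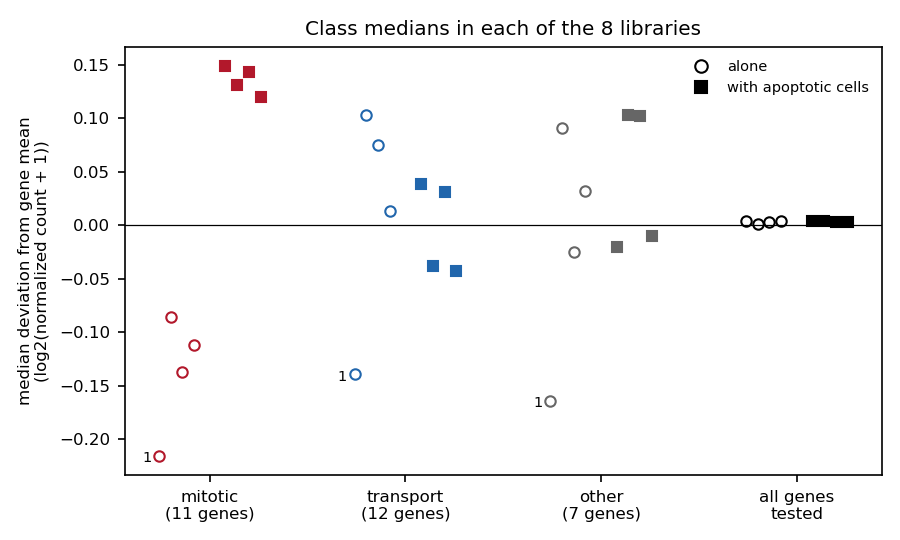
Median over the tested members of a class of the deviation from each gene's mean over 8 libraries (log2 scale), 1 point per library; open circles are libraries alone, filled squares co-cultures, and the digit 1 marks alone library 1. Mitotic medians lie from -0.22 to -0.09 alone and from 0.12 to 0.15 with apoptotic cells, and those of the other classes overlap between the groups.

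Motors of 1 structural family can serve different roles, so the log2 ratio of each mitotic kinesin to each other tested kinesin of its family was compared between the groups where both genes had means of 100 or more. There were 9 such pairs, and they were chosen after the fits were seen. The ratio of Kif4a to its kinesin-4 relative Kif7 rose by 0.40, from 0.64 ± 0.06 to 1.04 ± 0.05, that of Kif14 to Kif16b (kinesin-3) by 0.31, and that of Kif2c to Kif2a (kinesin-13) by 0.14 (SD, n = 4 per group). In these 3 pairs the groups did not overlap and the exact permutation test gave p = 0.0286 (two-sided), the smallest it can give. None passed after Benjamini-Hochberg adjustment over the 9 pairs (exact permutation test, adjusted p = 0.0857). Even at that smallest p, 3 pairs apart among 9 could not pass the adjustment, so the adjusted result decides little. The ratios use the same values as the fold changes above and are no separate evidence. The ratio of Kifc1 to Kifc3 (kinesin-14) changed by 0.08, within the spread between libraries (exact permutation p = 0.171, adjusted p = 0.22). The other 5 pairs overlapped too, with changes of -0.02 to 0.29 and exact permutation p-values of 0.0571 to 0.686.

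Most partners of mitotic kinesins rose alongside them. Of 25 tested genes in a list of spindle, midzone and kinetochore partners and proliferation markers, 18 rose and 0 fell by limma (72%, against 11.7% called of all genes), with a median log2 fold change of 0.21. The other 7 were not called. Among these, named after their values were seen, Birc5 (-0.06), Nuf2 (-0.06), Numa1 (0.01) and citron kinase (Cit, 0.04) changed least. Prc1, the midzone bundler that recruits Kif4a, stood at 2913, 3121, 3045 and 3035 normalized counts alone and at 4236, 4168, 4339 and 4164 with apoptotic cells (0.48, SE 0.03, limma adjusted p = 2.02e-05). Racgap1, the partner of Kif23 in centralspindlin, stood at 3084, 3035, 3024 and 2995 alone and at 3442, 3404, 3543 and 3446 with apoptotic cells (0.19, SE 0.03, limma adjusted p = 0.00326). Both pairs of partners thus had groups wholly apart, with a larger step for Kif23 than for Racgap1 on the log2 scale (0.51 and 0.19), a difference that was not tested.

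Plk1, a mitotic kinase that also acts at the midzone, rose by 0.48 (SE 0.03, limma adjusted p = 7.5e-06). Cenpe, the kinesin-7 motor of the kinetochore that the symbol rule does not match, stood at 3594, 4183, 3902 and 4108 normalized counts alone and at 5162, 5188, 5347 and 4882 with apoptotic cells (0.38, SE 0.05, limma adjusted p = 0.0011). Tpx2, a spindle assembly factor, rose by 0.29 (SE 0.03), Top2a, the topoisomerase of dividing cells, by 0.18 (SE 0.04) and the proliferation marker Mki67 by 0.43 (SE 0.11). The calls of Top2a and Mki67 were lost when alone library 3 or one of the co-cultures 1, 2 and 3 was left out, and that of Mki67 also without alone library 4 or the co-culture numbered 4 (adjusted p up to 0.0932). The count of 18 became 12 without co-culture library 1, and the other left-out libraries gave counts between 13 and 21. Counts over all genes moved too. Higher genes numbered 416 of 13492 without co-culture library 1 and 1811 of 13502 without alone library 1, in place of 858 of 13494.

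Among 15 tested regulators of G2/M genes, 2 rose and 0 fell (13.3% called, near the 11.7% of all genes, with a median of 0.04): Mybl2, the B-Myb factor of the MuvB complex, by 0.16 (SE 0.03, limma adjusted p = 0.0083), and Nfyc, a subunit of the CCAAT-binding factor NF-Y, by 0.16 (SE 0.04, adjusted p = 0.0284). The Nfyc call was lost without any 1 library other than alone library 1. Foxm1, an activator of many mitotic kinesin genes, stood at 3072, 3418, 3286 and 3459 normalized counts alone and at 3656, 3471, 3721 and 3616 with apoptotic cells, apart but not called (0.13, SE 0.04, limma adjusted p = 0.0823). Without alone library 1, 6 of these regulators rose and 1 fell, where 13.4% of all genes were higher and 12.5% lower.

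**Figure D5:**
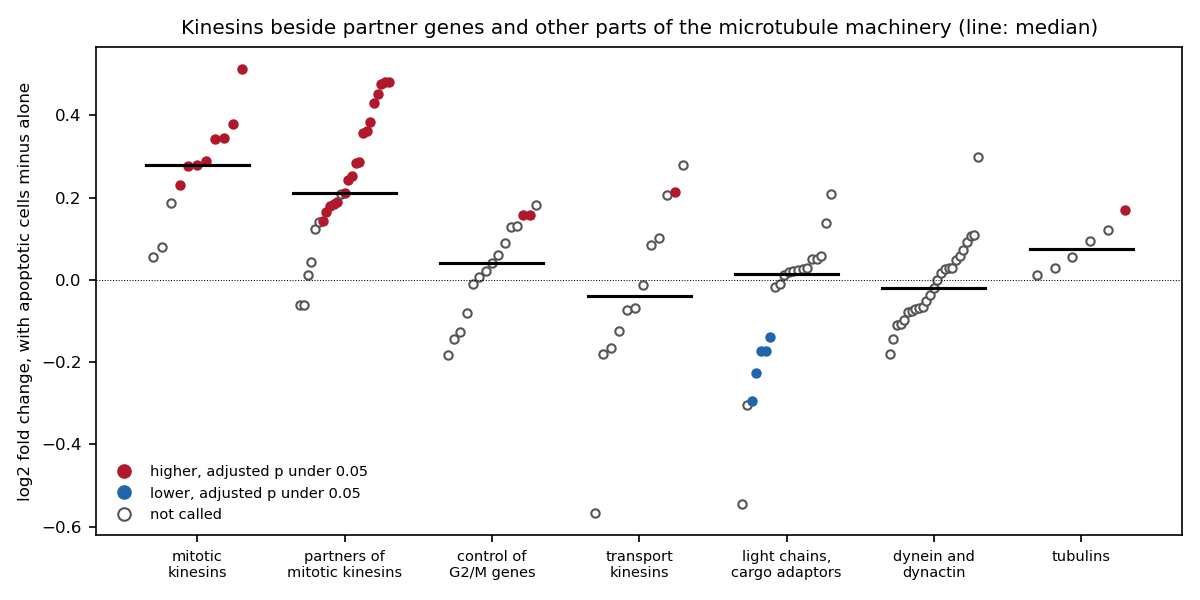
Log2 fold change (with apoptotic cells minus alone, limma) of each tested gene in the mitotic and transport kinesins and in 5 related lists; red and blue points are called higher and lower, and lines are medians. Called genes of the mitotic kinesins and their partners are all higher, and those among light chains and cargo adaptors are all lower.

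On the side of cargo transport, 5 of 20 tested light chains and adaptors fell and 0 rose (25%, against 11.7% of all genes called), with a median of 0.01. Klc4, a kinesin light chain, stood at 1162, 1202, 1195 and 1112 normalized counts alone and at 948, 972, 962 and 924 with apoptotic cells, with no overlap (log2 fold change -0.29, SE 0.04, limma adjusted p = 0.0016). Arl8a, a small GTPase that links lysosomes to kinesin, stood at 908, 907, 894 and 912 alone and at 752, 797, 752 and 794 with apoptotic cells (-0.23, SE 0.04, limma adjusted p = 0.00594). The other 3, named after their values were seen, were the related Arl8b (-0.14), Zfyve27 (protrudin, -0.17) and the JNK scaffold Mapk8ip1 (-0.17). Klc4 and Arl8a kept their calls with any 1 library left out, while the count of 5 became 2 or 3 without any 1 library other than alone library 1. In those same fits 356 to 596 of all genes were lower, in place of 716. Klc1, the most studied light chain, and Kifap3, the kinesin-2 adaptor, changed by 0.02 and 0.05 and were not called.

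The opposing motor showed no called change in the group-only fit on all libraries. None of 25 tested dynein and dynactin genes was called by that limma fit, by edgeR or by DESeq2, and the median was -0.02. With array weights 3 were called higher and 3 lower, where 3478 of all 13494 genes were called. An unadjusted limma p under 0.05 was found for 6 of the 25, near the share over all genes (3571 of 13494). The light chain Dynlt3 (-0.18, limma adjusted p = 0.0629) and the dynactin subunit Dctn5 (-0.11, adjusted p = 0.0739) had the smallest p. Dync1h1, the dynein heavy chain, ranged from 7653 in alone library 1 to 11678 in alone library 2, wider than the difference between the groups (0.09, SE 0.10). Without alone library 1, 3 dynein and dynactin genes were higher and 3 lower, a share near the 26.0% of all genes called in that fit. Of 6 tested tubulins, the track of both motors, Tubb4b rose (0.17, SE 0.04, limma adjusted p = 0.0177) and 0 fell (16.7% called, against 11.7% of all genes). That call was lost when alone library 3 or 4, or one of the co-cultures 1, 2 and 4, was left out, and Tubb6 was next (0.12, adjusted p = 0.0613).

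RNA of the added human cells could be counted under a hamster gene where the sequences match. Of 28 T cell markers found in the table, the co-cultures gave higher read numbers for 14, while Cd3d, Cd3g and Cd2 had 0 in every library. Among the 14, named after their values were seen, were the T cell receptor subunit Cd3e (0 reads alone and 2 with apoptotic cells), the kinases Lck (0 and 9) and Zap70 (0 and 5), the phosphatase Ptprc (3 and 14) and the transcription factors Bcl11b (0 and 5) and Lef1 (3 and 24). Others had fewer, such as Cd4 (7 and 5) and Ptprcap (36 and 24). The 20 markers with at most 5 reads alone had 12 reads alone and 77 with apoptotic cells in all. Of these, 13 had more reads with apoptotic cells and 1 had fewer. Kif23 had 11638 reads alone and 15219 with apoptotic cells. Marker reads cannot gauge the human share of these, since matching depends on the sequence of each gene. The summed level of all 28 markers, most of it from Tcf7, Themis, Gata3 and Lat, ran from 1736 to 1906 normalized counts alone and from 1654 to 1711 with apoptotic cells. Those genes were already counted in the libraries alone, so the sum cannot show whether human RNA was present. Themis and Cd28 fell (2 of 6 tested, where 5.31% of all genes were called lower). The part of Jurkat RNA in the rise of the mitotic kinesins was not tested.

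The label fibroblast was met in part. Of 12 fibroblast markers 11 were found and 8 tested, with Vim, Fn1 and Sparc high, while the defining collagens Col1a1 and Col1a2 had 2 to 6 reads per group and Thy1 had 0. Their summed level ran from 155874 to 159849 normalized counts alone and from 180048 to 181979 in the co-cultures. Most of it came from Vim (means of 111964 and 130760). Vim and Thbs1 were the 2 of 8 that rose (25%, against 11.7% of all genes called). Sparc (-0.08) and S100a4 (-0.19) were the 2 with negative changes and were not called. Of 5 epithelial markers Cdh1 alone was tested and fell, and of 3 tested myeloid markers 0 were called by limma and 0 had an unadjusted p under 0.05, Csf1r and Cd68 having the smallest p.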

How the data were processed

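mRNA libraries of 8 cultures were sequenced. The submitters' processing notes list STAR, featureCounts, FastQC and DESeq2 and no version. For the genome build, annotation and strand setting, each is not given in the sources used here, so reads of antisense or overlapping genes and of near-identical copies may not be told apart, and no positions are given. The authors deposited normalized signal per library, in which 100% of values are whole multiples of 1 read (tolerance 0.01). Per the file headers the deposited table also holds log2 fold changes, a test score and p-values, used here only to count members called.

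Columns were matched to samples by number and by the letters AC. The unnamed row (0.14 to 0.176% of reads) was left out. Genes with a mean of at least 10 were tested with limma 3.58.1 (R 4.3.3; trend, group only, log2(value + 1)), after a check on simulated counts. Alternatives were pseudocounts of 0.5 and 5, other filters, TMM scaling, array weights, a replicate block, left-out libraries, and edgeR 4.0.16 and DESeq2 1.42.0 on recovered reads. Members, classes, lists and tests were chosen with earlier results of these data known. Every tested kinesin is named; from the other lists, the 2 genes with the smallest adjusted p and Klc1, Kifap3, Racgap1, Prc1, Tpx2, Cenpe, Foxm1, Mki67, Top2a and Dync1h1. All 39 symbols were found in the RefSeq table, and 0 rows with LOC numbers were kinesins there. Kif11, Kif1b, Kifbp and other list members without a row were not analysed here, and sequences were not used here. Figures used matplotlib 3.10.9.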

Additional observations from a re-analysis of the deposited data

Results flagged for a closer look

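Among 60 groups of 4 libraries (30 tested kinesins in each condition), 2 held a library far from the others, where chance flags about 1 group in 20. Kif13a in alone library 1 stood at 401 normalized counts against 510 to 521 in the other libraries alone, a gap of 0.911 of the range. Kif4a in co-culture library 1 stood at 1666 against 1540 to 1543, a gap of 0.978 of the range, and its change without that library was 0.32, still called.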

How the results depend on the processing

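Each of 17 alternative settings kept the 8 calls among mitotic kinesins, whose count was 8 to 10 and whose median ran from 0.25 to 0.30 over left-out libraries. The number of libraries limits small changes, since the median SE was 0.07 over all genes tested. With libraries left out in turn, all kinesins gave 8 to 11 higher and 0 to 2 lower, transport kinesins 0 to 1 higher and 0 to 2 lower, and the third class 0 to 1 higher with a median of -0.059 to 0.11. Light chains and adaptors gave 2 to 6 lower, dynein and dynactin 0 to 3 higher and 0 to 3 lower, G2/M regulators 1 to 6 higher and 0 to 1 lower, and tubulins 0 to 3 higher. Over all genes, the fits with a library left out called from 772 (without co-culture library 1) to 3505 (without alone library 1), in place of 1574. With array weights, which called 3478 of all 13494 genes in place of 1574, 2 kinesins were lower, both transport, 2 of the third class were higher (median -0.043), and dynein and dynactin had 3 higher and 3 lower, G2/M regulators 5 higher and 1 lower and tubulins 3 higher. The third class had 0 higher with DESeq2, at a mean of at least 100 and with no filter, and G2/M regulators had 1 lower with DESeq2 and with TMM scaling. The cause of these moves was not tested, except that Kif26b is below a mean of 100 and so not tested there.

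Replicate numbers gave no clear sign of pairing (r of deviations -0.09 to 0.07, and 1 of 4 alone libraries correlated best with its own number). Such correlations cannot exclude that the cultures were paired. With the replicate block 898 genes were called in place of 1574. It left 8 mitotic, 0 transport and 0 third-class kinesins higher, 2 light chains and adaptors lower and 1 G2/M regulator higher.

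Directions that turned belonged to kinesins that were not called: Kif21a (-0.049) and Kif24 (-0.081) with array weights and, over left-out libraries, Kif21a (-0.059 to 0.11) and Kif24 (-0.089 to 0.17), both negative without alone library 1. Kif1c (-0.066 to 0.016) was positive without alone library 3 or 4, Kif27 (-0.030 to 0.31) and Kif5a (-0.41 to 0.049) turned without alone library 3, and Kif9 (-0.19 to 0.0056) without co-culture library 1.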
